A study of Mus musculus with 4 samples.

Results

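VEGF ligands and receptors, the angiopoietin ligand Angpt2 with the Tie receptors, the apelin pair and the tip-cell gene Esm1 were followed in endothelial cells of the healthy mouse heart with and without deletion of Gata4. The genes were taken by symbol from the joined deposited tables, where all 10 (Vegfa, Pgf, Kdr, Flt1, Angpt2, Tek, Tie1, Apln, Aplnr and Esm1) were found among 38087 listed genes. Both groups were C57BL/6 mice carrying a Tie2-CreERT2 transgene, a tamoxifen-activated Cre under Tie2 promoter and enhancer sequence, and an eGFP Cre-dependent reporter in the Rosa locus. The Gata4 KO group, in addition, was labelled Gata4-deficient, from a line with loxP sites at Gata4. All mice ate chow with tamoxifen citrate at 40 mg/kg from 4 weeks of age for 4 weeks, and eGFP+ CD31+ cells were sorted from the ventricles at 8 weeks. RNA sequencing gave 2 control and 2 Gata4 KO libraries. Controls therefore also carried Cre and received tamoxifen, and recombination was possible only where the Tie2 transgene was active. Tie2 is the protein of Tek, so the regulatory sequence driving Cre belongs to one of the genes described here. Several numbers are joined in the names of control libraries but not in those of Gata4 KO libraries, so animals may have been pooled in one group only. Nothing in the labels says that libraries of a group were separate animals, and the p-values rest on a spread between libraries that may be technical.

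VEGF-A is the main growth factor of blood vessels and acts on endothelial cells through the receptor tyrosine kinase VEGFR2, the product of Kdr. VEGFR1, the product of Flt1, binds VEGF-A more tightly but signals weakly and acts largely as a decoy, and placental growth factor (Pgf) binds VEGFR1 and not VEGFR2. Angiopoietins act on the receptor Tie2 (Tek), which keeps vessels quiescent when bound by Angpt1, while Angpt2 made by endothelial cells is a context-dependent antagonist and Tie1 is a co-receptor with no well-established ligand of its own among the angiopoietins. At the front of a sprouting vessel, tip cells exposed to VEGF-A transcribe Esm1, Apln and Angpt2, and the adult heart's capillaries are largely quiescent.

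The deposited values are log2 values centred by gene on the median of the 4 libraries, so they show how libraries differ in a gene and carry no information on how abundant it is. Because of the centring, the middle 2 of the 4 values of each gene are mirror images around 0. Of 38087 genes, 14470 varied and were tested by limma. All 10 genes were among them, and 0 were tied at a lowest value, the mark of a lower threshold in these tables. Sequencing depth is unknown, so no counting interval was computed. The values cover whole genes, and soluble and membrane-bound forms of Flt1 or splice forms of Vegfa cannot be told apart in them.

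Promoter sequence is shown for the gene with the largest difference (Esm1), for the one with lower values in Gata4 KO (Pgf), and for Vegfa and Flt1, whose profiles over the libraries were the closest. Each run is the 250 bases before an annotated RefSeq start on GRCm38.p6, 5′ to 3′ on the strand of the gene. Capitals mark a GATA motif, searched as TGATAA or TGATAG or AGATAA or AGATAG on both strands, or a cyclic AMP response element, searched as TGACGTCA. The windows are chr13:113209409-113209658 (plus strand) for Esm1, chr12:85177314-85177563 (minus strand) for Pgf, chr17:46032378-46032627 (minus strand) for Vegfa and chr5:147726012-147726261 (minus strand) for Flt1.
Esm1: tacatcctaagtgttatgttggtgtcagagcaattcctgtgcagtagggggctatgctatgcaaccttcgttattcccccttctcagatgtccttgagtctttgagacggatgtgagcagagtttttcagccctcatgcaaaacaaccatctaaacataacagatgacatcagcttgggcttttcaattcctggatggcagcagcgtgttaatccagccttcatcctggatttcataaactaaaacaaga
Pgf: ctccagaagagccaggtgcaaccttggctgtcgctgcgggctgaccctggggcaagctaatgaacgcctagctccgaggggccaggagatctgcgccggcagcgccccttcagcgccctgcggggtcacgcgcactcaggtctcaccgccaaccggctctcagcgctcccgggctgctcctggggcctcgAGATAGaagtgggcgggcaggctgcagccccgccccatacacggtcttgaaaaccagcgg
Vegfa: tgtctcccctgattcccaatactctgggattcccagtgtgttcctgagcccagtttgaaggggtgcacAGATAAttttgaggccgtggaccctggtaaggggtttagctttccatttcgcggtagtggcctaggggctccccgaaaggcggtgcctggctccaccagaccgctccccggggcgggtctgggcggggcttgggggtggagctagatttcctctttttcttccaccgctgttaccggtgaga
Flt1: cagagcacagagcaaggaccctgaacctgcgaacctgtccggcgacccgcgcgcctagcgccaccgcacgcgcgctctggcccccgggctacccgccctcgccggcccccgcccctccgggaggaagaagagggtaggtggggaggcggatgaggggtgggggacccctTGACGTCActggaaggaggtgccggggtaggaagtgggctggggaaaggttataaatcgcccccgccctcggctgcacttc
The table held 10 such windows for 8 of the genes, with Aplnr and Angpt2 having no entry. Pgf and Vegfa each had another window, not printed, with 0 GATA motifs. The printed Pgf window lies inside the gene coordinates given below, so its motif is not upstream of the whole gene. A GATA motif was in 2 of the 10 windows, the Pgf one starting 60 bases and the Vegfa one 182 bases before the annotated start, against 26.5% of all 32851 windows. The cyclic AMP response element lay in the Flt1 window, 81 bases before the start, and in 1.55% of all windows. The ETS motif GGAAGT, searched on both strands, was in 3 windows (Kdr, Flt1 and Tie1) against 19.7% of all, and the hypoxia response core ACGTG was in 1 (the second start of Vegfa) against 16.6%. The AP-1 motifs TGAGTCA and TGACTCA were in 0 of the 10 windows and in 4.46% of all. The Esm1 window held none of these letters, and such matches describe sequence and not binding.

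Of the 10 genes, 9 had higher mean values in Gata4 KO, led by Esm1 and Aplnr, while Pgf had lower ones. A positive difference was found in 48.9% of all tested genes. In 3 of the 9 (Vegfa, Flt1 and Tek) the difference was under 0.1. Differences ran from -0.60 to 1.56 on the log2 scale with a median of 0.25, beside a median of -0.0088 over all tested genes. In 5 genes (Kdr, Angpt2, Tie1, Aplnr and Esm1) both Gata4 KO values lay above both controls, an order found in 15.7% of all tested genes, and in 1 (Pgf) both lay below, found in 17.3%. In the remaining 4 genes the groups overlapped. Limma was run with Benjamini-Hochberg adjustment over all 14470 genes. Of the 10 genes, 0 passed an adjusted p of 0.05, as did 0% of all tested genes in either direction. With a mean trend in the fit 27 of all genes passed, and 0 of the 10. The values are centred by gene, so such a trend does not follow abundance and its calls have no clear meaning. At an unadjusted p of 0.05, 1 of the 10 (Esm1) passed, against 2.76% of all genes higher and 5.36% lower. With 2 libraries against 2, an exact two-sided permutation test cannot give a p below 0.333, which is the value for each of the 6 genes whose groups did not overlap. No difference below is therefore established by a test, and values are given as measured.

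**Figure D1:**
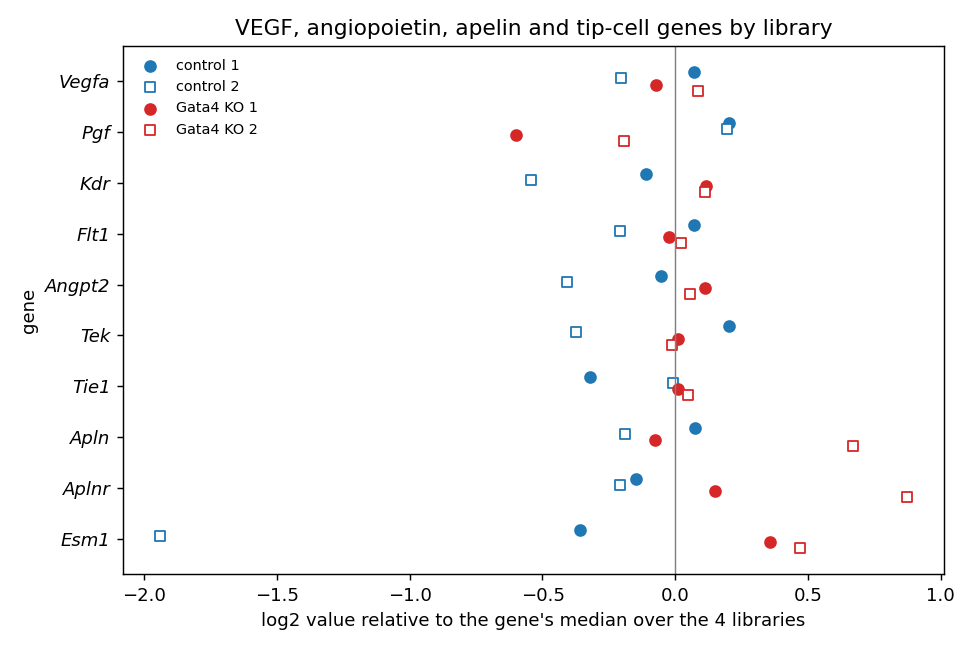
Log2 value relative to the gene's median over the 4 libraries (horizontal axis) for the 10 genes (vertical axis), with 1 point per library, blue for control and red for Gata4 KO, filled for replicate 1 and open for replicate 2. Control 2 is the lowest point in 8 of the 10 genes, down to -1.94 in Esm1.

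Esm1 (ENSMUSG00000042379, mm10 chromosome 13, 113209659 to 113218098), which encodes the secreted proteoglycan endocan and is among the most VEGF-responsive genes of endothelium, stood at -0.36 and -1.94 in the controls and at 0.36 and 0.47 in Gata4 KO. Both Gata4 KO libraries were high and alike, and the controls differed from each other by 1.58, the same size as the difference between the groups. Controls averaged -1.15 ± 1.12 (SD, n = 2) and Gata4 KO 0.41 ± 0.08 (SD, n = 2). This is a 2.95-fold difference, or 1.56 on the log2 scale (standard error 0.55, 95% interval 0.15 to 2.97). Its adjusted p by limma was 0.560 and its unadjusted p 0.0357, and 99.7% of the tested genes had a lower difference. Without control 2 the difference was 0.77, and without control 1 it was 2.35. On the opposite strand, Esm1 overlaps the granzyme gene Gzmk, which had the same value in all 4 libraries.

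The VEGF ligands went apart. Vegfa (chromosome 17, 46016993 to 46032369) had values of 0.072 and -0.20 in controls and of -0.072 and 0.085 in Gata4 KO. The groups overlapped, and the whole range over the libraries was 0.29. The difference was 0.073, with a 95% interval of -0.53 to 0.68 and a limma adjusted p of 0.969, so that changes up to about that size in either direction lie within the error; without control 2 it was -0.065 and without Gata4 KO 2 -0.0062. Pgf (chromosome 12, 85166635 to 85177790) stood at 0.20 and 0.19 in controls and at -0.60 and -0.19 in Gata4 KO. The controls were nearly identical and both Gata4 KO libraries were below them, 1.51-fold lower on average (log2 difference -0.60, standard error 0.25, 95% interval -1.23 to 0.043, limma adjusted p = 0.650). Without Gata4 KO 1 the difference was -0.39 and without Gata4 KO 2 it was -0.80. Pgf was the only one of the 10 genes with a negative difference, and 9.56% of the tested genes had a lower one.

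Of the VEGF receptors, Kdr (chromosome 5, 75932827 to 75978458) stood at -0.11 and -0.54 in controls and at 0.11 and 0.11 in Gata4 KO. Both Gata4 KO values were higher than both controls and differed from each other by 0.0025, against 0.43 between the controls. The difference was 1.36-fold (log2 value 0.44, standard error 0.25, 95% interval -0.21 to 1.09, limma adjusted p = 0.814), and 0.22 without control 2. Flt1 (chromosome 5, 147561604 to 147726011), the decoy receptor, had 0.069 and -0.21 in controls and -0.022 and 0.022 in Gata4 KO. Here the Gata4 KO libraries lay between the controls, and the difference was 0.070 (95% interval -0.52 to 0.66, limma adjusted p = 0.970), or -0.069 without control 2. The log2 value of Kdr minus that of Flt1, each centred on its own median, was -0.18 and -0.34 in controls and 0.14 and 0.089 in Gata4 KO. Shifts of this value between libraries do not depend on a scaling common to all genes of a library. Because of the centring, its sign does not show which gene was higher. Vegfa and Flt1, a ligand and its receptor, had the closest profiles of the 45 pairs among the 10 genes, with a Euclidean distance of 0.080 over the 4 libraries. These genes also varied least of the 10, with ranges of 0.29 and 0.28. Centred genes that vary little lie close together whatever their regulation.

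In the angiopoietin system both Gata4 KO values lay above both controls for Angpt2 and Tie1 but not for Tek. Angpt2 (chromosome 8, 18690263 to 18741562) stood at -0.054 and -0.41 in controls and at 0.11 and 0.054 in Gata4 KO. Both Gata4 KO values were above the controls, by 1.24-fold on average (log2 difference 0.31, standard error 0.24, 95% interval -0.31 to 0.93, limma adjusted p = 0.842), and by 0.14 on the log2 scale without control 2. Angpt2 overlaps Mcph1 on the opposite strand, and Mcph1 had a difference of -0.38; whether the counting used strand is not given in the sources used here, so reads of these genes may be mixed. Tek (chromosome 4, 94739289 to 94874976) had 0.20 and -0.38 in controls and 0.011 and -0.011 in Gata4 KO. Its Gata4 KO libraries lay between 2 widely separated controls, with a difference of 0.087 (95% interval -0.63 to 0.81, limma adjusted p = 0.969). The direction for Tek depended on 1 library, since without control 2 it was -0.20. Tie1 (chromosome 4, 118471191 to 118490061) had -0.32 and -0.010 in controls and 0.010 and 0.048 in Gata4 KO. The groups did not overlap, but control 2 and the Gata4 KO libraries were close, and the difference was 0.19 (95% interval -0.41 to 0.80, limma adjusted p = 0.896). Without control 1, the low library in this gene, it was 0.040. The within-library value of Angpt2 minus Tek was -0.26 and -0.032 in controls and 0.10 and 0.064 in Gata4 KO. Its sign, too, does not show which gene was higher.

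**Figure D2:**
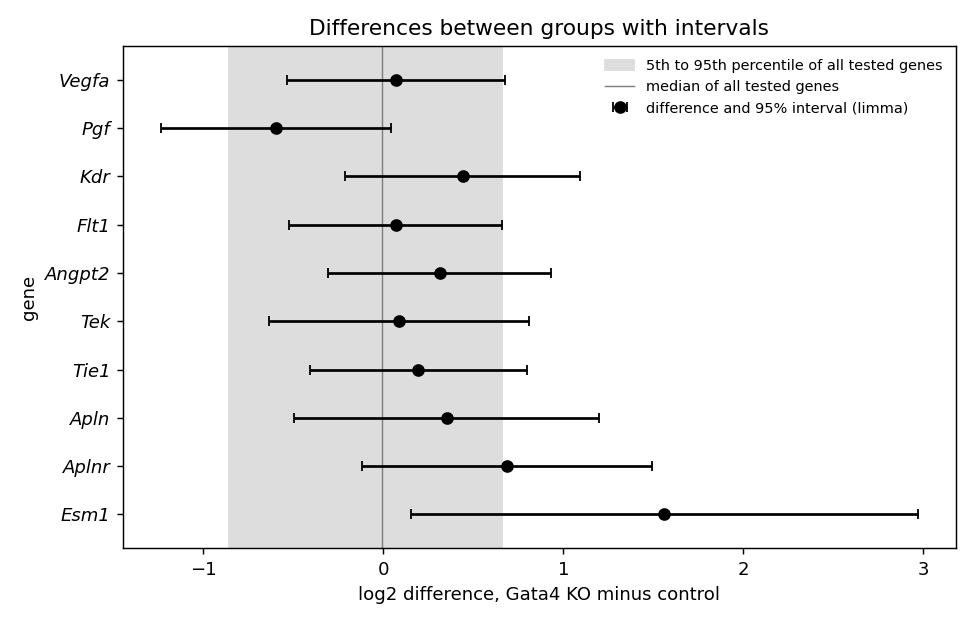
Log2 difference between Gata4 KO and control for the 10 genes, as points with 95% intervals from limma, over a grey band from the 5th to the 95th percentile of all 14470 tested genes. Esm1 and Aplnr lie above the band, and the interval includes 0 for every gene but Esm1.

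Among the apelin genes, the receptor had the second largest difference of the 10. Aplnr (chromosome 2, 85136225 to 85139923), a G protein-coupled receptor of endothelium, stood at -0.15 and -0.21 in controls and at 0.15 and 0.87 in Gata4 KO. Controls were close together, and Gata4 KO 2 was much higher than Gata4 KO 1. The difference was 1.61-fold (log2 value 0.69, standard error 0.31, 95% interval -0.12 to 1.49, limma adjusted p = 0.698), and 0.33 without Gata4 KO 2. Apln (chromosome X, 48025146 to 48034853), the peptide ligand that tip cells secrete, had 0.076 and -0.19 in controls and -0.076 and 0.67 in Gata4 KO. Gata4 KO 2 was again the high library while Gata4 KO 1 lay among the controls, so the groups overlapped. Its difference was 0.35 (standard error 0.33, 95% interval -0.49 to 1.20, limma adjusted p = 0.859), and -0.020 without Gata4 KO 2. Xist, the RNA of the inactive X chromosome of female cells, had values of 2.76 and 3.71 in Gata4 KO and was tied at its lowest value in the controls, while the Y-linked gene Ddx3y was at its lowest value in both Gata4 KO libraries and at 1.80 and 1.58 in controls. Male mice in the control group and female mice in the Gata4 KO group would show this pattern, and the effects of sex and of genotype, on the X-linked Apln as on the others, cannot be told apart. The 437 tested X-linked genes had a median difference of 0.015, beside -0.0088 over all tested genes. Of the X-linked genes, 18.3% lay above both controls, beside 15.7% of all tested genes.

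Vegfa, Kdr, Flt1, Angpt2, Tek and Esm1 were each lowest in control 2 and each had a wider gap between the controls than between the Gata4 KO libraries. Over the 10 genes, control 2 held the lowest value in 8 of them (all but Pgf and Tie1), beside 37.0% of the 11894 tested genes without ties. The spread between the controls was wider than that between the Gata4 KO libraries in 7 genes, beside 59.4% of the same tested genes; the exceptions were Pgf, Apln and Aplnr. Averaged over the 10 genes, control 1 stood at -0.037 and control 2 at -0.39, while Gata4 KO 1 stood at -0.0016 and Gata4 KO 2 at 0.21. In the same order, the library medians over all 14470 tested genes were 0.042, -0.011, 0.0 and 0.0. Without control 2, 5 of the genes lay above the remaining control, beside 25.6% of all tested genes, and 3 (Flt1, Tek and Pgf) below it, beside 42.6%. Without control 1 the counts were 9 above, beside 38.4%, and 1 below, beside 32.3%.

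**Figure D3:**
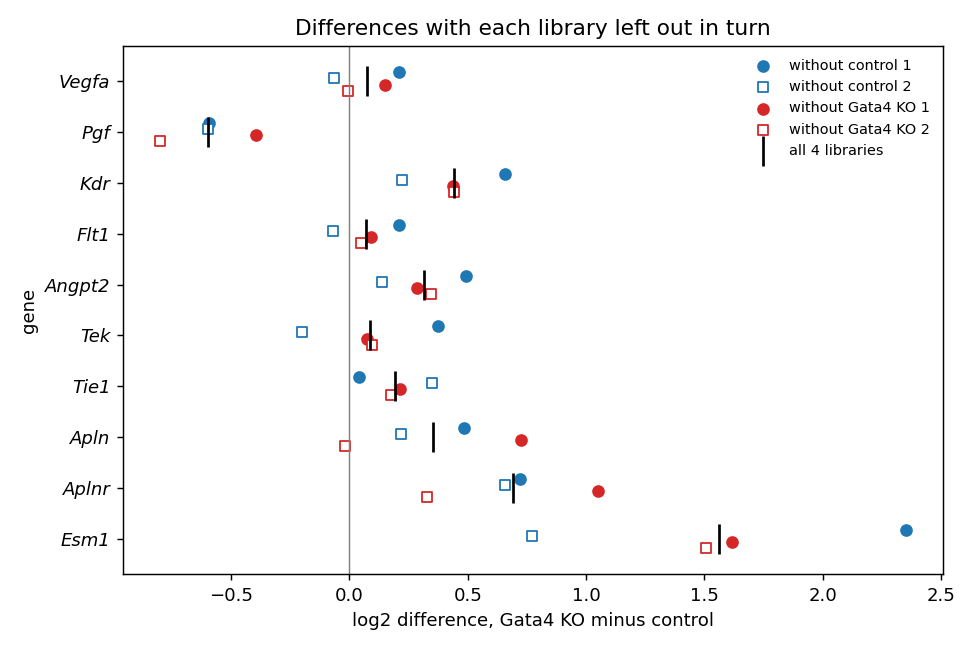
Log2 difference between Gata4 KO and control for the 10 genes with all 4 libraries (black bar) and with each library left out in turn (points). Esm1 spans 0.77 to 2.35, and Vegfa, Flt1, Tek and Apln cross 0.

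The genes with the most similar values were named for the 3 with the largest differences, by Euclidean distance over the 4 libraries. For Esm1 they were Mir1192 (0.21), Iah1 (0.29) and Timm9 (0.33), each with control 2 between -2.11 and -1.80. For Aplnr they were the histone mRNA binding gene Slbp (0.059), Kbtbd7 (0.11) and the kinase gene Mapk7 (0.12). For Pgf they were the receptor tyrosine kinase gene Kit (0.083), the phosphatase gene Ptpn14 (0.089) and the collagen prolyl hydroxylase gene P4ha2 (0.10). Such distances over 4 libraries describe the values and carry no test.

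Of 6 other tested genes of the VEGF family, 0 lay above both controls and 2 below, with a median difference of 0.050, and 0 passed over all genes. Over all tested genes, 15.7% lay above both controls and 17.3% below. Figf, which encodes the lymphatic growth factor VEGF-D, stood at 1.03 and 0.94 in controls and was tied at its lowest value of -0.94 in both Gata4 KO libraries. It was 3.82-fold lower as measured (log2 difference -1.93, limma adjusted p = 0.188), with a difference and a standard error that the tie may make too small. With a mean trend in the limma fit, its adjusted p was 0.0393, but in centred values that trend does not follow abundance. Vegfb, which encodes another ligand of VEGFR1, had 0.21 and 0.22 in controls and -0.35 and -0.21 in Gata4 KO. Its difference was -0.50, and both Gata4 KO values lay below both controls, as for Pgf. The lymphatic ligand gene Vegfc had a difference of 0.16, its receptor gene Flt4 -0.0041, and the co-receptor genes Nrp1 and Nrp2 0.10 and 0.37, with overlapping groups in all 4. Markers of fibroblasts and of lymphatic endothelium were measured in the same libraries. All 10 fibroblast markers lay below both controls (median -1.45), from Mfap4 at -2.06 to Pdgfra at -0.89, with list means of 1.22 and 0.38 in controls and -0.40 and -0.91 in Gata4 KO. All 6 lymphatic markers did too (median -1.89), from Mmrn1 at -2.58 to Pdpn at -0.56, with list means of 0.80 and 0.86 in controls and -0.57 and -1.30 in Gata4 KO. The sort was for eGFP+ CD31+ cells, and fibroblasts lack CD31 while lymphatic endothelial cells carry it. The values give no measure of the purity of the sorted cells. The part of either cell type in the values of Pgf, Figf and Vegfb was not tested, and fewer cells of a type and less RNA per cell cannot be told apart in bulk samples.

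Beside these, 8 of 9 tested macrophage markers (median -1.22, from Mrc1 at -1.93 to Cd68 at 0.27), 5 of 6 endocardial markers (median -1.24, from Tbx20 at -2.35 to Nfatc1 at 0.054), 6 of 10 cardiomyocyte markers (median -0.39, from Myh6 at -0.99 to Pln at -0.013) and 4 of 11 pericyte and smooth muscle markers (median -0.16, from Cnn1 at -2.17 to Notch3 at 0.30) lay below both controls. Platelet markers did so in 2 of 3 (median -1.37, Ppbp at -1.61 and Pf4 at -0.86), and mesothelial markers in 0 of 3 (median 0.26, Upk3b at -0.17 and Wt1 at 0.44). Endothelial markers ran from -0.20 (Eng) to 1.03 (Cldn5) with a median of 0.094, 4 of 12 lying above both controls. Among all tested genes, 17.3% lay below both controls and 15.7% above. Because the values are centred, they cannot show at what level any of these markers was present.  Without genes tied at their lowest value, the markers Mfap4, Postn and Cnn1 (limma adjusted p = 0.0462 each) passed the limma threshold as lower. So did Mrc1 (0.0479), Tbx20 (0.0473) and Lyve1 (0.0286). Lyve1 also passed with a mean trend (0.0393), which in centred values does not follow abundance. The endocardial list includes Gata4, the deleted gene, among the 5 below. Gata4 itself had 0.48 and 0.14 in controls and -0.14 and -0.46 in Gata4 KO, a difference of -0.61 (limma adjusted p = 0.663) in the direction of the labels.

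In the Tie pathway, 0 of 7 tested genes lay above both controls and 2 below (median 0.022, 0 passing). The shares over all tested genes were 15.7% above and 17.3% below. Angpt1, the activating ligand made mainly by mural and mesenchymal cells, had 0.040 and 0.60 in controls. It was tied at its lowest value of -0.040 in both Gata4 KO libraries, close to control 1. As measured it was 1.28-fold lower (log2 difference -0.36, 95% interval -1.07 to 0.35, limma adjusted p = 0.842), a difference that rests mostly on control 2. The matrix protein gene Svep1 was tied in the same way and 1.69-fold lower as measured (limma adjusted p = 0.578). Ptprb, which encodes the endothelial phosphatase VE-PTP that dephosphorylates Tie2, had a difference of -0.17, and Foxo1, which encodes a transcription factor restrained by Tie2 signalling, one of 0.27. The integrin genes Itgb1 and Itga5 had 0.19 and 0.022 and the signalling adaptor gene Tnip2 0.034. In the apelin and adrenomedullin list, 1 of 4 tested genes lay above both controls (median 0.093). This was Adm, the gene of the vasodilator adrenomedullin, with -0.41 and -0.45 in controls and 0.59 and 0.41 in Gata4 KO, a difference of 0.93 (standard error 0.22, limma adjusted p = 0.407). Its receptor genes Calcrl, Ramp2 and Ramp3 had 0.15, 0.036 and -0.14, with overlapping groups.

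Downstream of the receptors, transcripts that VEGF-A induces in cultured endothelium were mostly higher. In the VEGF response list, 12 of 19 tested genes lay above both controls and 1 below (median 0.67), and 0 passed over all genes. Of all tested genes, 15.7% lay above both controls and 17.3% below. Egr3, an early growth response transcription factor gene, had -1.42 and -0.78 in controls and 0.78 and 0.93 in Gata4 KO, a difference of 1.95 (standard error 0.30, limma adjusted p = 0.297, and 0.0462 without genes tied at their lowest value). The orphan nuclear receptor genes Nr4a1 and Nr4a2 had differences of 1.76 and 1.07, the phosphatase gene Dusp5 one of 1.23 and Egr2 one of 1.11. Vcam1, the leukocyte adhesion receptor gene, was the one below both controls, at -1.09. The list mean was -0.38 and -0.28 in controls and 0.28 and 0.28 in Gata4 KO. Genes of this kind also respond to tissue dissociation. The Egr and Nr4a genes are immediate early genes too but were placed in the VEGF response list alone. A list of other immediate early genes therefore holds 0 of the same genes, and these lists are not distinct classes. In it, 11 of 15 lay above both controls and 0 below (median 0.69), with list means of -0.38 and -0.30 in controls and 0.14 and 0.39 in Gata4 KO. This immediate early list included Btg2 at 1.19, the chaperone genes Dnajb1 at 1.12 and Hspa1a at 0.85, Zfp36 at 0.91, Klf6 at 0.78 and Dusp1 at 0.77. The part of dissociation in the values of the VEGF response genes or of Esm1 was not tested.

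**Figure D4:**
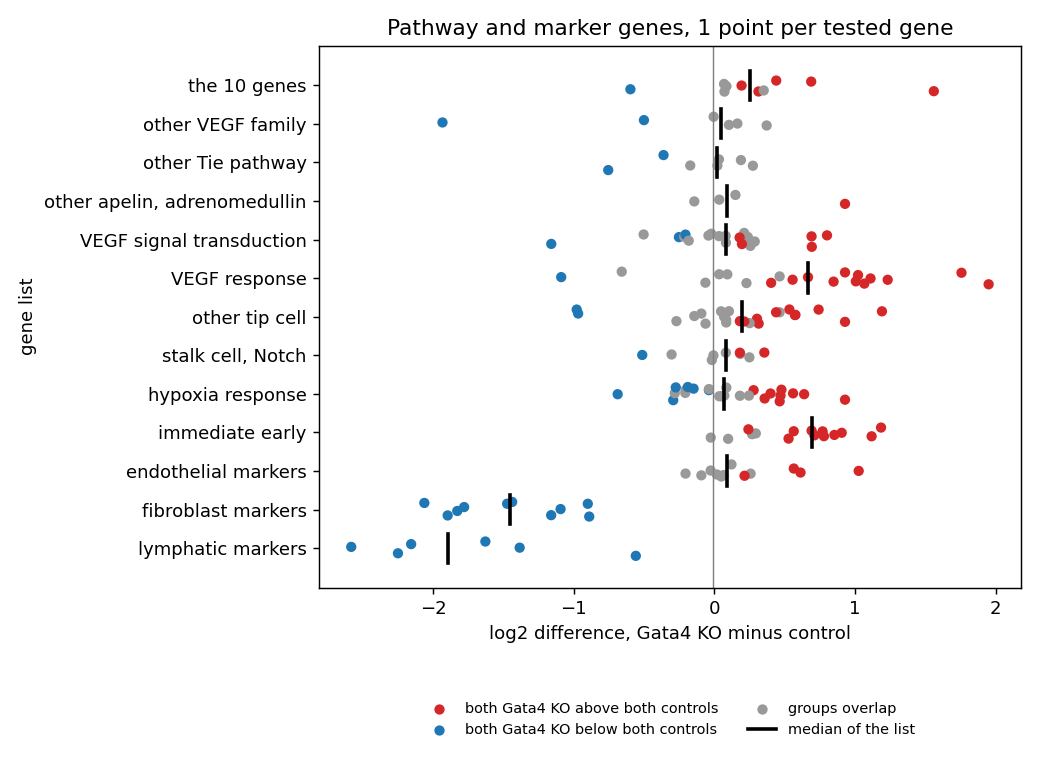
Log2 difference between Gata4 KO and control for each tested gene of the pathway and marker lists, with the list median as a black bar. Points are red where both Gata4 KO values lie above both controls, blue where both lie below and grey where the groups overlap; the VEGF response median is 0.67, while the fibroblast and lymphatic medians are -1.45 and -1.89.

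Genes of the signalling chain below VEGFR2 had a median of 0.082, with 5 of 20 tested above both controls and 3 below. Beside this list and those that follow, the shares over all tested genes were 15.7% above and 17.3% below. The adaptor gene Shb, which links VEGFR2 to focal adhesions, had -0.29 and -0.70 in controls and 0.29 and 0.31 in Gata4 KO, a difference of 0.80 (limma adjusted p = 0.505). The kinase gene Fyn and the small heat shock protein gene Hspb1 had 0.69 each, and Ptprj, which encodes a phosphatase of VEGFR2, had -1.16. Among other tip-cell genes, 11 of 24 lay above both controls and 2 below, with a median of 0.20 and 0 passing. Besides Adm, the potassium channel subunit gene Kcne3 had a difference of 1.19 (standard error 0.25, limma adjusted p = 0.356), the pericyte-recruiting growth factor gene Pdgfb 0.74 and the actin-bundling gene Fscn1 0.58. The lysyl oxidase gene Lox and the diaphragm gene Plvap had -0.98 and -0.97; Plvap is also in the endocardial list. Stalk-cell and Notch genes had a median of 0.083, with 2 of 9 above both controls and 1, the glycosyltransferase gene Lfng at -0.51, below. The 2 above were Hes1 and Dll4, and Dll4 is also counted above in the tip-cell list. Adm is counted above in the VEGF response, tip-cell, adrenomedullin and hypoxia lists, so the counts of these lists are not separate. Hypoxia induces Vegfa, and in the hypoxia list 9 of 25 lay above both controls and 6 below (median 0.071). Besides Adm, Pgk1 had 0.64, Ddit4 0.56 and P4ha2 -0.69 in that list, with 0 of the 25 passing over all genes.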

How the data were processed

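Endothelial RNA was sequenced in 2 control and 2 Gata4 KO libraries, grouped by the labels. The authors deposited log2 values per library with a log2 fold change and a signed fold score per gene, exported as a fold-change list on an Ensembl annotation, per the file headers. Per the submitters' processing notes, mm10 was the build. The aligner, the counting and any library scaling were not given in the sources used here. Depth is unknown.

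The 2 tables were joined into 38087 genes. Gene medians over the libraries were 0 (largest deviation 9.55e-07), and the authors' deposited log2 fold changes matched differences between group means to within 3e-07. Genes with the same value in all libraries (23617) were not tested. Ties at a gene's lowest value (tolerance 2e-06) occurred in 2 libraries for 1011 genes and in 3 for 1565.

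Groups were compared by limma 3.58.1 in R 4.3.3 (lmFit, eBayes without trend, two-sided, Benjamini-Hochberg over 14470 genes, threshold 0.05), tested on simulated data. The members and lists were chosen with earlier results of these data known. List genes were named where the groups did not overlap and the difference was at least 0.5 in size, up to 6 per list; all VEGF family, Tie and apelin list genes and the extreme marker of each marker list were named too. Coordinates come from GENCODE M21 and promoters from RefSeq GRCm38.p6, the same build. Of list symbols, Vegfd and Adgre1 are listed under Figf and Emr1, and Apela and Ackr3 were not found.

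Alternatives were a mean trend, a robust prior, subtracted library medians, quantile normalization, no tied genes and each library left out. Because the values are centred by gene, the mean trend does not follow abundance.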

Additional observations from a re-analysis of the deposited data

How the results depend on the processing

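Of 90 alternative values for the 10 genes, 85 kept their direction and their side of the threshold, and 0 passed it. The other 5 changed direction, all with 1 library left out. The mean trend, the robust prior and leaving out tied genes alter no gene's difference, so no direction could change there. Without control 2, Vegfa had -0.065, Flt1 -0.069 and Tek -0.20, and without Gata4 KO 2, Vegfa had -0.0062 and Apln -0.020; without 1 library, values of these genes reached 0.21 for Vegfa, 0.21 for Flt1, 0.38 for Tek and 0.72 for Apln. The number of all genes past an adjusted p of 0.05 was 27 with a mean trend, 7 with a robust prior, 7 with library medians subtracted and 51 without tied genes, against 0 as reported, 0 with quantile normalization and 0 to 0 without any 1 library. The fit without tied genes tested fewer genes (11894). The prior degrees of freedom, the weight limma gives to the variance shared over genes, differed too. They were 2.96 as reported, 5.01 with a mean trend and 7.75 without tied genes. The part of each in these counts was not tested. The number of the 10 genes above both controls was 5 to 9 without 1 library, and below both 1 to 3; 9 above came without control 1, where 38.4% of all genes lay above, and 3 below came without control 2, where 42.6% lay below. The median difference of the 10 genes was 0.14 to 0.43 without 1 library, and 0.27 and 0.28 under the 2 other scalings. No paired analysis was possible because the replicate numbers only follow the order of accessions and tie no control library to a Gata4 KO library. Unknown depth limits what can be said of genes near the lower threshold.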
